A study of Mus musculus with 8 samples.

Results

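Transcription of 9 activity-regulated genes was examined in uterus and brain of mice on day 4 of gestation. They are the 4 EGR zinc-finger genes Egr1, Egr2, Egr3 and Egr4, the 3 orphan nuclear receptor genes Nr4a1, Nr4a2 and Nr4a3, the synaptic gene Arc and the neuronal transcription factor gene Npas4. They were chosen by symbol, and each symbol matched 1 of the 19884 genes in the deposited count table. The animals were adult wild-type C57BL/6J females of 6 to 10 weeks, mated with fertile males, untreated, and sampled on day 4, counting the vaginal plug as day 1. Whole uterus was taken as 4 libraries and whole maternal brain as 4 libraries. Embryo presence was checked by flushing the uterus, and the labels do not say whether a uterus and a brain with the same number came from 1 mouse. No non-pregnant animal, other day or other treatment was measured here.

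The genes belong to the immediate early class, which is transcribed within minutes of a stimulus without new protein synthesis and whose transcripts are then soon degraded. In neurons, synaptic activity and calcium entry drive them through the factors CREB, SRF and MEF2, while growth factors and stretch can drive Egr1 and the NR4A genes in many other cell types. EGR proteins bind GC-rich sites through 3 zinc fingers, and EGR1 and EGR2 among them are held in check by the NAB corepressors. NR4A receptors act without a known physiological ligand, and NR4A1 and NR4A2 among them can pair with RXR. NPAS4 pairs with ARNT proteins, and ARC acts at the synapse in the removal of AMPA receptors. In the mouse uterus Egr1 is known as a target of oestrogen and LIF signalling around implantation.

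Library totals were 35394603 to 40254254 counts in uterus and 40115616 to 47790178 in brain, and log2 CPM of libraries correlated across genes at 0.982 to 0.993 inside 1 organ and at 0.536 to 0.558 from organ to organ. Markers matched the organ labels. The 10 neuronal markers together reached 9.44 to 15.2 CPM (counts scaled to a common library size with TMM factors) in uterus and 7439.8 to 7651.6 CPM in brain. The 10 uterine markers reached 8528 to 9642 CPM in uterus and 57.9 to 69.2 CPM in brain. The 5 oligodendrocyte markers summed to 8.66 to 9.81 CPM in uterus, with Opalin at 0, and 4542 to 4847 CPM in brain. Endothelial markers (6 genes) summed to 792 to 891 CPM in uterus and 131 to 151 CPM in brain, leukocyte markers (7 genes) to 135 to 143 and 106 to 133 CPM, and blood cell markers (7 genes) to 54.7 to 84.5 and 79.2 to 264 CPM. Uterus libraries 2 and 4 and brain library 1 stood apart from the others of their organ on the first principal component over all genes, so the folds are also given without them where this matters. In bulk tissue, fewer cells of a type and less RNA per cell cannot be told apart.

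None of the 9 genes was higher in uterus, and 7 were lower (6 without the 3 libraries that stood apart), with a median log2 fold change of -2.11 against 0.01 for all 16074 genes tested. Of all genes tested, 43.5% were called higher and 43.6% lower in uterus, 87.0% in either direction, by edgeR's quasi-likelihood test at a Benjamini-Hochberg adjusted p of 0.05. All 9 passed the filter on low counts. The libraries of the organs did not overlap for 6 of the 9, namely Egr3, Egr4, Nr4a1, Nr4a2, Nr4a3 and Arc, against 84.1% of all genes tested, or 42.0% with uterus below brain. The same 6 passed a test against a 2-fold change, which 25.8% of all genes passed in that direction. Egr1 and Egr2 did not pass, and Npas4 passed narrowly. Folds are uterus over brain, so negative values mean lower in uterus, and their errors are SE.

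**Figure D1:**
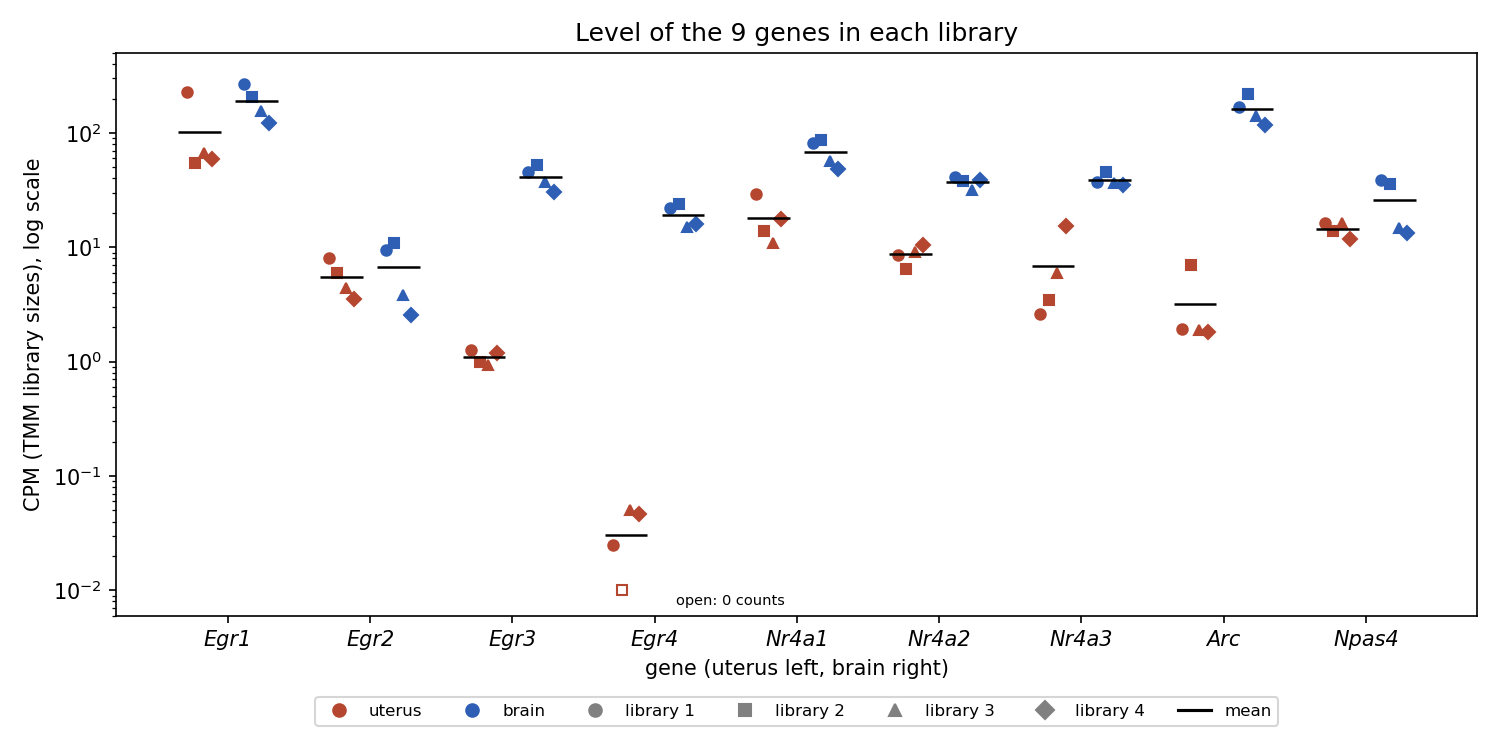
CPM of each gene in each library on a log axis, with uterus left of brain, 1 symbol per library number and a line at the mean of 4 libraries. The uterus library with 0 counts of Egr4 is drawn as an open symbol at the foot of the axis. The organs are fully separated for Egr3, Egr4, Nr4a1, Nr4a2, Nr4a3 and Arc and overlap for Egr1, Egr2 and Npas4.

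The DNA before the starts of 6 of the 9 genes is described with matches to sites of the factors named above. RefSeq starts on GRCm38.p6 were found for 6 genes, Egr2, Egr4, Nr4a1, Nr4a2, Nr4a3 and Npas4, in 10 windows. The 250 bases before each start were searched on both strands for the core TGACGTC and the short motif TGACG of the cAMP response element (CRE), to which CREB binds, and for the CArG box of SRF. A core holds a short motif, so these matches overlap. Of 32851 windows of that length, 2.78% hold a CRE core, 17.8% a short motif and 1.47% a CArG box. The windows below are printed 5′ to 3′ on the gene's strand, with all matches in capitals. They were picked to show the gene with a CArG box, the gene nearly silent in uterus, a receptor gene with short motifs alone and the gene with 2 cores.
Egr2, chr10:67537619-67537868, plus strand: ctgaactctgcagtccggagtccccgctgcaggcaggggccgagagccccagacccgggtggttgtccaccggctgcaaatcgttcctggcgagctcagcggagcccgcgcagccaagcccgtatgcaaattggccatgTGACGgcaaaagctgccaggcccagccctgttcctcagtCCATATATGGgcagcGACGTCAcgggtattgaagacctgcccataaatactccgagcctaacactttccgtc
Egr4, chr6:85513590-85513839, minus strand: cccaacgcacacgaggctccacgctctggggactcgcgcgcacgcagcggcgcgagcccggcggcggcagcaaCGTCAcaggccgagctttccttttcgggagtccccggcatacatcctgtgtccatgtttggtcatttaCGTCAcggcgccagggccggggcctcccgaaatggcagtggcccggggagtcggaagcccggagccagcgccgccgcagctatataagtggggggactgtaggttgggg
Nr4a1, chr15:101266596-101266845, plus strand: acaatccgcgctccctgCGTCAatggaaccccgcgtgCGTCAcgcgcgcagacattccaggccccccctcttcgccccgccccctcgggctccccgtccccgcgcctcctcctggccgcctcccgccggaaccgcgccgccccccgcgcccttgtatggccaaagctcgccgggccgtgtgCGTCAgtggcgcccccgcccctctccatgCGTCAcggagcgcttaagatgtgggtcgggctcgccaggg
Npas4, chr19:4989972-4990221, minus strand: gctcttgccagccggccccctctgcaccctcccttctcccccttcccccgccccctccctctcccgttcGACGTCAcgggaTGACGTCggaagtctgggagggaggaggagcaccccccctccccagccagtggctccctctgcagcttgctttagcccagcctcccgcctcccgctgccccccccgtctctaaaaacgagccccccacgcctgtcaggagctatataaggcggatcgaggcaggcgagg
Npas4 holds 2 cores, at -181 and -169 from the start, within which its 2 short motifs lie. Egr2 holds 1 core at -57 and a CArG box at -72 in this window. Of its 5 windows, 3 largely overlapping ones hold the core and 4 hold a CArG box. Egr4 holds 2 short motifs and no core, Nr4a1 and Nr4a2 hold 4 short motifs and no core, and Nr4a3 holds 1 core and 4 short motifs. The EGR site GCGTGGGCG and the NR4A site AAAGGTCA, present in 0.536% and 1.34% of windows, matched none of the 10 windows, which says only that these letters are not there. A match is a description of sequence and not a site shown to be bound. Of the genes with a core, Nr4a3 had the organs apart and Egr2 and Npas4 overlapped, while Egr4, Nr4a1 and Nr4a2, with short motifs alone, had the organs apart.

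**Figure D2:**
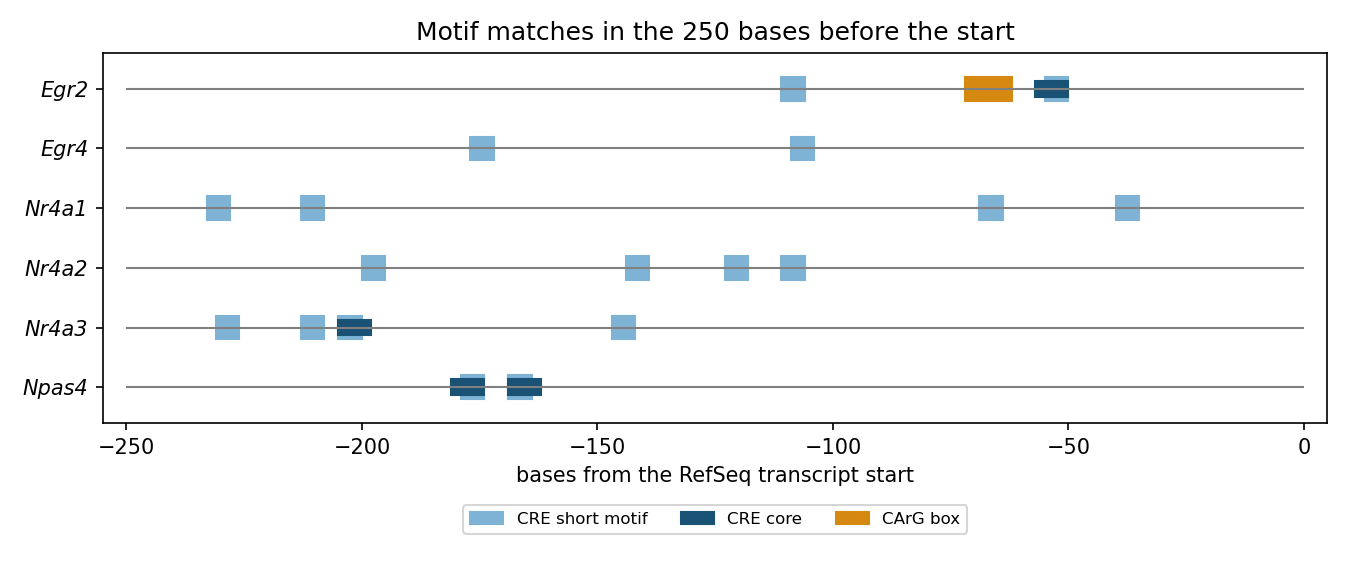
Positions of CRE short motifs, CRE cores and CArG boxes in the 250 bases before a RefSeq start, 1 row per gene, with the x axis in bases from the start. Egr2 is drawn by the window printed in the text; each row holds 2 to 4 short motifs, and the CArG box lies in Egr2.

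Egr1 (ENSMUSG00000038418, chromosome 18, 34859823 to 34864984, GRCm38, plus strand) encodes the most widely used EGR factor. It stood at 227, 54.2, 67.3 and 59.2 CPM in uterus libraries 1 to 4 and at 268, 208, 156 and 123 CPM in brain libraries 1 to 4. Uterus library 1 lay within the brain range and the other uterus libraries below all brain libraries. The log2 fold change was -0.89 ± 0.46, which did not pass (adjusted p = 0.096, edgeR). Without uterus library 1 it was -1.63 and passed (adjusted p = 1.9e-04, edgeR), and limma-voom with all libraries gave -1.11, with a 95% interval of -2.04 to -0.18 (adjusted p = 0.0276). With uterus libraries 1 and 3 and brain libraries 2 to 4 alone it was -0.12. Over all alternatives the adjusted p ran from 1.9e-04 to 0.806 with the direction kept in each.

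Egr2 (ENSMUSG00000037868, chromosome 10, 67535475 to 67542188, plus strand) encodes a factor best known for driving hindbrain patterning and myelination by Schwann cells. It stood at 8.03, 5.93, 4.39 and 3.50 CPM in uterus and 9.50, 11.0, 3.86 and 2.55 CPM in brain. The uterus range lay inside the brain range, with brain libraries 1 and 2 above it and brain library 4 below it. The log2 fold change was -0.30 ± 0.45 (adjusted p = 0.54, edgeR), with a limma-voom 95% interval of -1.14 to 0.92, and it was 0.05 without brain library 2. Among Schwann cell markers, Sox10 stood at 0.101 to 0.304 CPM in uterus and 46.6 to 53.7 CPM in brain. The list of 8 markers, which oligodendrocytes share in part, summed to 207 to 256 CPM in uterus and 2374 to 2711 CPM in brain. Their part in the Egr2 level was not tested.

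Egr3 and Egr4 separated the organs most among the EGR genes. Egr3 (ENSMUSG00000033730, chromosome 14, 70077203 to 70082614, plus strand), which encodes a factor needed for muscle spindles and memory in mice, stood at 1.26, 0.988, 0.938 and 1.19 CPM in uterus and 45.5, 51.9, 36.9 and 30.6 CPM in brain. Every uterus library held 37 to 51 counts, so the gene was low but detected. It was lower in uterus by a log2 fold change of -5.23 ± 0.20 (adjusted p = 2.2e-09, edgeR). Egr4 (ENSMUSG00000071341, chromosome 6, 85511121 to 85513589, minus strand), the EGR gene known mainly from brain and testis, had 1, 0, 2 and 2 counts in uterus, or 5 counts in all. Each lies under 3 counts, the level a library with none could still hide, or 0.0699 to 0.0761 CPM in uterus. In brain it stood at 22.2, 24.0, 15.0 and 15.9 CPM. The log2 fold change of -9.17 ± 0.36 (adjusted p = 2.6e-09, edgeR) therefore rests on the prior count as well as on those 5 counts.

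The make-up of the EGR family also differed in value. Levels between genes are compared per length, as RPKM (CPM per kilobase of annotated exon). Egr1 made up 95.0, 86.0, 90.8 and 90.9% of the summed EGR level in uterus and 71.8, 63.9, 67.8 and 64.6% in brain. Egr3 made up 1.32 ± 0.572% in uterus and 15.3 ± 1.96% in brain, and Egr4 0.0785 ± 0.0786% and 14.7 ± 2.15% (SD, n = 4 each). The summed EGR level was 53.4, 14.1, 16.5 and 14.5 RPKM in uterus and 83.3, 72.5, 51.3 and 42.6 RPKM in brain. Uterus library 1 again lay within the brain range, and no test was made on these shares or sums.

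All 3 NR4A genes were lower in uterus. Nr4a1 (Nur77, ENSMUSG00000023034, chromosome 15, 101254269 to 101274795, plus strand), a receptor gene of T cell selection and steroid-producing cells as well as neurons, stood at 29.3, 13.9, 11.0 and 17.8 CPM in uterus and 81.1, 86.1, 56.8 and 48.6 CPM in brain. The lowest brain library was above the highest uterus library, which was library 1, as for Egr1. The log2 fold change was -1.92 ± 0.30 (adjusted p = 1.5e-04, edgeR).

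Nr4a2 (Nurr1, ENSMUSG00000026826, chromosome 2, 57106830 to 57124003, minus strand), needed for midbrain dopamine neurons, was the steadiest of the NR4A genes in uterus. It stood at 8.63, 6.42, 9.16 and 10.4 CPM in uterus and 41.5, 38.0, 31.4 and 39.0 CPM in brain. The fold was -2.11 ± 0.15 on the log2 scale (adjusted p = 2.3e-07, edgeR). Nr4a3 (Nor1, ENSMUSG00000028341, chromosome 4, 48045153 to 48086447, plus strand) stood at 2.62, 3.48, 5.93 and 15.4 CPM in uterus and 37.1, 45.3, 36.6 and 34.9 CPM in brain. Brain was even and uterus was not, with library 4 far above the others. The log2 fold change was -2.48 ± 0.47 (adjusted p = 5.6e-04, edgeR), or -3.25 without uterus library 4. Per length, Nr4a1 was the main member in both organs, at 60.0 ± 13.2% of the family in uterus and 54.7 ± 5.47% in brain, and Nr4a2 made up 26.5 ± 6.60% and 26.8 ± 4.31% (SD, n = 4 each). The NR4A sum was 10.9, 6.11, 6.37 and 10.2 RPKM in uterus and 39.5, 41.5, 30.1 and 29.3 RPKM in brain.

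Arc (ENSMUSG00000022602, chromosome 15, 74669083 to 74672570, minus strand) encodes a synaptic protein of retroviral origin that forms capsids carrying RNA. It stood at 1.91, 7.06, 1.90 and 1.82 CPM in uterus and 167, 218, 139.8 and 117 CPM in brain. Uterus library 2, with 300 counts, was far above the other 3, which held 75 to 78 counts. The gene was lower in uterus by a log2 fold change of -5.65 ± 0.44 (adjusted p = 6.7e-07, edgeR), or -6.41 without uterus library 2. Neuronal markers summed to 9.44, 9.78, 10.6 and 15.2 CPM in uterus libraries 1 to 4, and their part in the Arc values was not tested.

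Npas4 (ENSMUSG00000045903, chromosome 19, 4984355 to 4990316, minus strand) encodes an activity-dependent factor known chiefly from neurons, where it shapes inhibitory synapses. It was counted in every uterus library, at 16.2, 13.8, 16.4 and 11.9 CPM (510 to 648 counts). In brain it stood at 38.8, 36.1, 14.8 and 13.3 CPM. The uterus values were close to those of brain libraries 3 and 4, on both sides of them, and brain libraries 1 and 2 were above all the rest. The log2 fold change was -0.82 ± 0.34 (adjusted p = 0.0433, edgeR). That call ended when any 1 uterus library or brain library 1 or 2 was left out (adjusted p = 0.0587 to 0.155), with limma-voom (adjusted p = 0.122), and with upper-quartile or library-size scaling (adjusted p = 0.143 and 0.144, log2 fold changes -0.57 and -0.56). In the same uterus libraries the neuronal markers Nefl and Slc17a7 stood at 0 to 0.152 and 0.0507 to 0.373 CPM, and Stmn2, the one of the 10 with the most counts there, at 5.55 to 6.97 CPM. The part of neurons in the uterine Npas4 level was not tested. No annotated gene overlaps Npas4, the nearest one is AC124502.5, 1041 bp away on the same strand, and no transcript of another gene matched it at 98% identity over 150 nt. None of the other 8 genes had an overlapping gene or such a copy either.

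**Figure D3:**
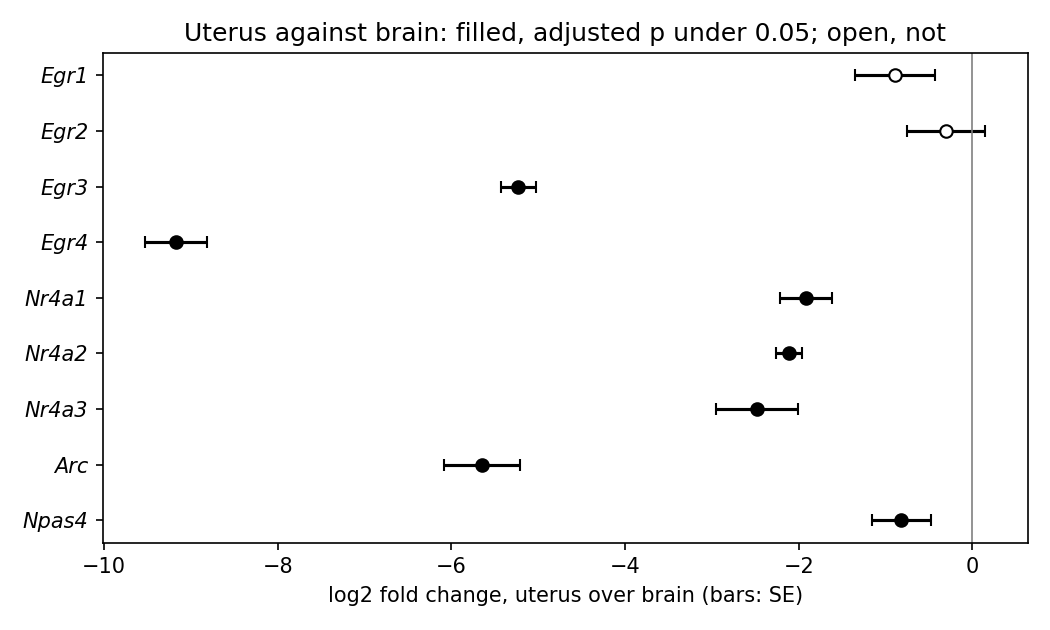
Log2 fold change of each gene, uterus over brain, with SE bars, filled where the edgeR adjusted p was under 0.05 and open where it was not. Egr4, Arc and Egr3 lie farthest toward brain, at -9.17, -5.65 and -5.23, and Egr1 and Egr2 are open.

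The order of the genes differed between the organs. In uterus, mean levels per length ran from Egr1 (22.8 RPKM) through Nr4a1 (5.12), Npas4 (3.52), Nr4a2 (2.13), Egr2 (1.61), Nr4a3 (1.15) and Arc (1.04) to Egr3 (0.248) and Egr4 (0.0143). In brain they ran from Arc (52.5 RPKM) and Egr1 (42.1) through Nr4a1 (19.4), Egr3 (9.36), Nr4a2 (9.24), Egr4 (8.98), Nr4a3 (6.43) and Npas4 (6.22) to Egr2 (1.98). Neighbours whose library ranges did not overlap were Egr1 and Nr4a1 in both organs, Npas4 and Nr4a2, Arc and Egr3, and Egr3 and Egr4 in uterus, and Nr4a1 and Egr3 in brain. All other neighbours overlapped. Arc, the first in brain with Egr1 overlapping it, was the seventh in uterus, and Npas4, the third in uterus, was the eighth in brain.

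The genes at 1 CPM or more had a larger SD of log2 CPM between libraries than the median gene of their organ. The SD of log2 CPM over 4 libraries had a median of 0.12 over 13769 genes at 1 CPM or more in uterus and of 0.09 over 14152 such genes in brain. In uterus Nr4a3 (SD 1.12), Egr1 (0.97) and Arc (0.94) lay at the 99.2, 98.9 and 98.8 percentiles, while Egr3 (0.20) and Npas4 (0.22) lay at 71.4 and 75.2. Uterine Egr3 held only 37 to 51 counts a library, so counting error adds to its SD. The percentiles were not matched for level, so they do not show that uterine Egr3 varied more between animals. In brain Egr2 (1.01) and Npas4 (0.82) lay at the 99.8 and 99.6 percentiles, and Nr4a2 (0.17) and Nr4a3 (0.17) at 82.1 and 80.5. Npas4 was among the steadier of the 9 in uterus and among the most variable in brain, and Nr4a3 the other way round.

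The libraries that stood high differed between the organs. In brain, libraries 1 and 2 were both above libraries 3 and 4 for 8 of the 9 genes, the exception being Nr4a2. This held for 13.4% of all genes tested. In the fixed lists it held for 9 of 17 other immediate early transcription factors, among them Fos (45.3, 38.2, 19.5 and 16.7 CPM), for 6 of 14 immediate early feedback regulators, for 5 of 13 neuronal effectors, for 3 of 24 upstream kinases and factors, and for 0 of 12 partners and corepressors. This pattern was noticed in the data, and no test was made on it. Nr4a3 held it narrowly, with brain libraries 1 and 3 nearly tied (37.1 and 36.6 CPM). Neuronal markers summed to 7567, 7652, 7649 and 7439.8 CPM in brain libraries 1 to 4 and blood cell markers to 79.2, 264, 138 and 252 CPM, and their part in the pattern was not tested. In uterus no such shared order was seen. Library 1 was the highest for Egr1, Egr2, Egr3 and Nr4a1, library 2 for Arc, library 3 for Npas4, and library 4 for Nr4a2 and Nr4a3, while the Egr4 counts were too low to order. For Egr3, libraries 1 and 4 were nearly tied (50 and 51 counts), as were libraries 1 and 3 for Npas4 (16.2 and 16.4 CPM). Of all genes tested, 22.2% were highest in uterus library 1.

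**Figure D4:**
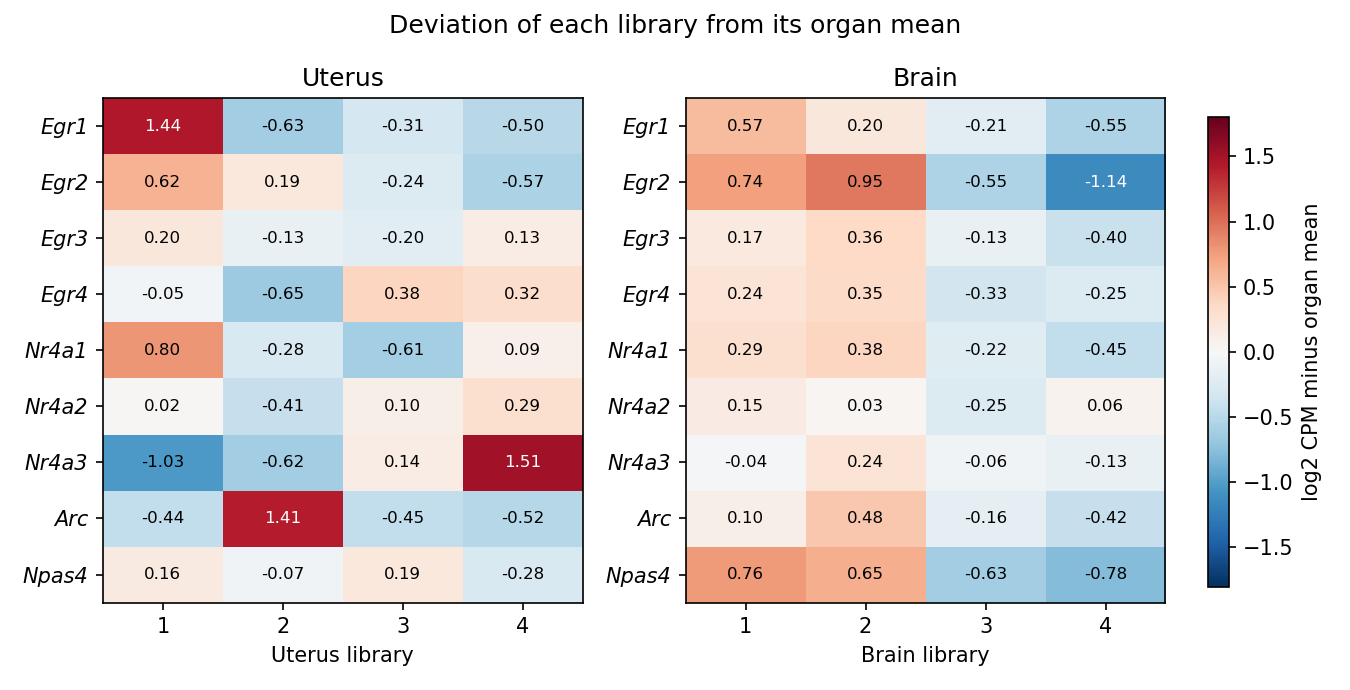
Log2 CPM of each gene in each library minus the mean of the 4 libraries of that organ, uterus left and brain right, with the value printed in each cell. In brain, columns 1 and 2 are above columns 3 and 4 for each gene but Nr4a2, while in uterus the highest cells are Nr4a3 in library 4 (1.51), Egr1 in library 1 (1.44) and Arc in library 2 (1.41).

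Other immediate early transcription factor genes were more often higher than lower in uterus. Of 17 such genes, 11 were higher in uterus (all genes tested: 43.5%) and 3 were lower (43.6%). Fos, Junb and Ier5 did not pass, and the median was 0.62 against 0.01 for all genes tested. Atf3, a stress-induced factor, stood at 9.15 ± 3.46 CPM in uterus and 0.990 ± 0.272 CPM in brain (log2 fold change 3.21 ± 0.31). Nfil3, a factor of circadian and immune genes, stood at 58.0 ± 8.53 and 10.1 ± 0.545 CPM (2.53 ± 0.11), and Ier2 at 54.3 ± 19.3 and 9.55 ± 1.24 CPM (2.51 ± 0.22). Against that direction, Fosb was at 3.62 ± 0.421 CPM in uterus and 11.5 ± 5.97 CPM in brain (-1.66 ± 0.34), and the clock gene Per1 at 58.4 ± 7.20 and 104.6 ± 17.2 CPM (-0.84 ± 0.13). Fos itself stood at 24.6 ± 9.99 and 29.9 ± 14.0 CPM (-0.28 ± 0.36, adjusted p = 0.472, edgeR). Means here and below carry SD over n = 4 libraries, and folds SE.

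Immediate early feedback regulators include genes whose products damp kinase signalling or degrade transcripts. Of the 14 listed, 6 were higher in uterus (all genes tested: 43.5%), 7 were lower (43.6%) and Sik1 did not pass. Their median of -0.11 was 0.15 with library-size scaling, under which the median of all genes was 0.27 in place of 0.01. Dusp2, a MAP kinase phosphatase gene, was at 19.3 ± 3.90 CPM in uterus and 0.837 ± 0.268 CPM in brain (4.53 ± 0.23). Zfp36, whose protein promotes decay of short-lived transcripts, was at 54.7 ± 17.6 and 3.65 ± 0.640 CPM (3.91 ± 0.23), and Rgs2, an inhibitor of G protein signalling, at 670.4 ± 87.0 and 61.1 ± 5.63 CPM (3.46 ± 0.11). These genes had the largest folds of the list and were all higher in uterus. Of the 7 lower genes, Dusp5 had the largest fold, at 7.27 ± 1.25 and 31.5 ± 3.24 CPM (-2.12 ± 0.14).

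Neuronal genes known to be regulated by activity were mostly lower in uterus. Of 13 such effectors, 12 were lower in uterus (all genes tested: 43.6%) and 1, Rasd1, was higher (43.5%), with a median of -3.61. The secretory granule genes Scg2 and Vgf were at 0.162 ± 0.0818 and 0.266 ± 0.213 CPM in uterus and 356 ± 24.8 and 219.9 ± 31.1 CPM in brain (-11.06 ± 0.18 and -9.70 ± 0.26), and the adhesion gene Pcdh8 at 0.236 ± 0.1498 and 31.9 ± 3.06 CPM (-7.09 ± 0.29). Rasd1, a Ras-like gene induced by dexamethasone, was at 28.1 ± 16.5 CPM in uterus, where library 4 held 52.8 CPM, and 11.8 ± 0.912 CPM in brain (1.26 ± 0.32). This list holds genes of neurons by its making, and the neuronal markers differ between the organs as given above.

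Of 24 kinases and factors upstream of the 9 genes, 8 were higher in uterus (all genes tested: 43.5%) and 14 were lower (43.6%). Creb1 and Mapk3 did not pass, and the median of the list was -0.49. Neuronal calcium-dependent kinase genes were lowest relative to brain, with Camk2a at 1.91 ± 0.477 CPM in uterus and 1834 ± 95.4 CPM in brain (-9.91 ± 0.19), Camk2b at 4.79 ± 2.84 and 919.9 ± 30.4 CPM (-7.58 ± 0.41) and Camk4 at 7.07 ± 1.79 and 357 ± 44.4 CPM (-5.66 ± 0.19). In the other direction, the SRF cofactor gene Elk3 was at 92.2 ± 4.08 and 10.03 ± 0.518 CPM (3.20 ± 0.06) and the CREB relative Atf1 at 53.3 ± 2.87 and 13.2 ± 0.748 CPM (2.02 ± 0.06). Creb1 was at 96.7 and 91.6 CPM (0.08 ± 0.06, adjusted p = 0.234, edgeR).

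Of 12 partners and corepressors, 6 were higher in uterus (all genes tested: 43.5%) and 6 were lower (43.6%). The median was -0.13, and 0.13 under library-size scaling. Cacng2, an AMPA receptor auxiliary subunit gene, had 2 counts over the 4 uterus libraries and 105.9 ± 4.58 CPM in brain. The NR4A partner gene Rxrg was at 0.162 ± 0.115 and 14.0 ± 1.81 CPM (-6.39 ± 0.39), and the postsynaptic scaffold gene Dlg4 at 51.8 ± 4.90 and 569.7 ± 30.1 CPM (-3.46 ± 0.08). The EGR corepressor gene Nab1 was higher in uterus, at 79.0 ± 7.92 and 43.4 ± 2.62 CPM (0.87 ± 0.08), as was the endophilin gene Sh3gl1, at 67.9 ± 1.43 and 40.9 ± 1.49 CPM (0.73 ± 0.05).

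**Figure D5:**
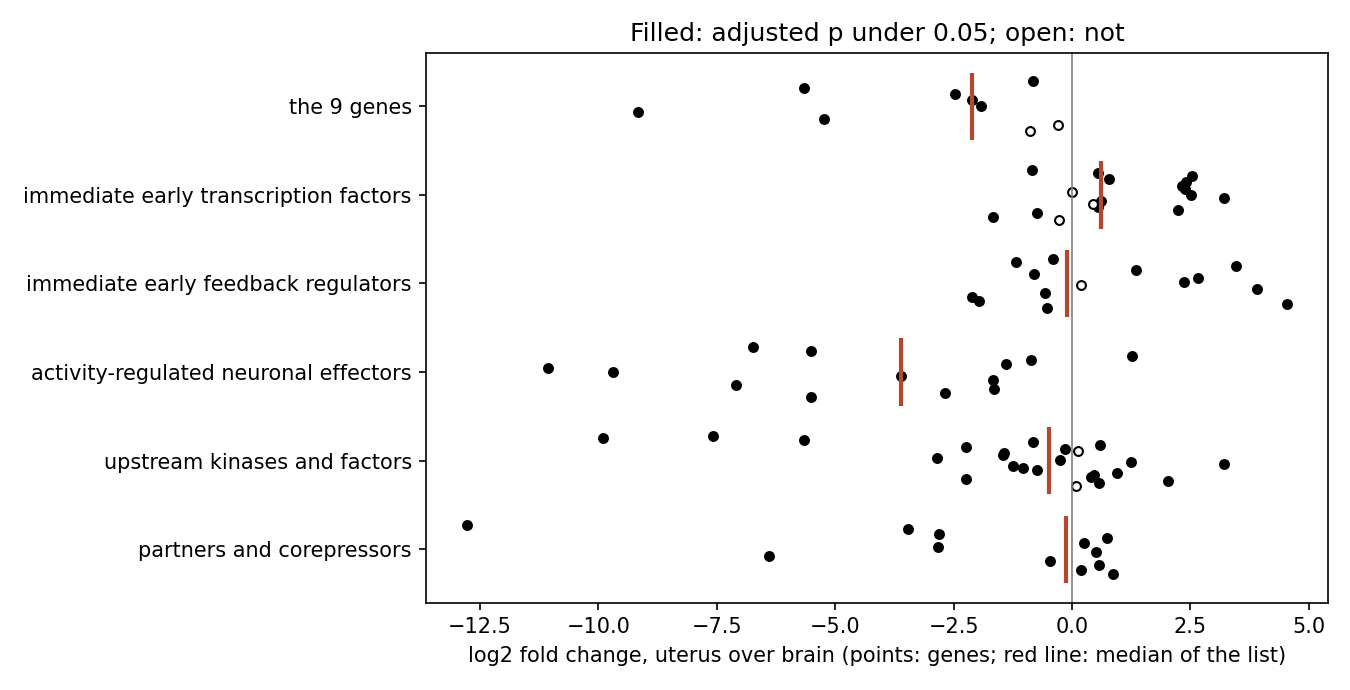
Log2 fold change, uterus over brain, of every tested gene in the 9 and in 5 lists of related genes, filled where the edgeR adjusted p was under 0.05, with a red line at each list's median. The medians are -2.11 for the 9 genes and 0.62, -0.11, -3.61, -0.49 and -0.13 for the immediate early transcription factors, feedback regulators, neuronal effectors, upstream kinases and factors, and partners.

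Genes with the most alike profile were found by the root mean square difference of log2 CPM over the 8 libraries, each gene centred on its own mean. Egr2 came closest to Fos (0.408) and Npas4 (0.410), both immediate early genes. Nr4a2 came closest to Bicd1 (0.104) and Ccdc30 (0.109), the smallest differences of the 9. Nr4a1 was nearest to Kremen2 (0.269) and Hmga1 (0.287), and Nr4a3 to Tmem266 (0.261) and Popdc3 (0.265). Egr1 was nearest to Gm694 (0.462) and Cilp2 (0.484), Npas4 to Ppp1r36 (0.358) and Slc38a5 (0.369), and Arc to Kcnh6 (0.259) and Nxph4 (0.378). Egr3 was nearest to Pax7 (0.179) and Smim17 (0.189), and Egr4 to Slco1c1 (0.212) and B3gat1 (0.259). Pax7 had 0 counts in uterus, Kcnh6 averaged 0.0176 CPM there, and Egr4 itself had 5 counts there in all. The prior count of 2 therefore sets part of their likeness, including that of Egr4 to Slco1c1 and B3gat1. Egr1, Egr2 and Npas4 had the least alike nearest genes of the 9.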

How the data were processed

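Total RNA of whole uterus and whole maternal brain was sequenced from a stranded, ribosomal RNA-depleted preparation, per the labels' protocols. The authors deposited raw counts per gene, with no normalization. The submitters' processing notes name FastQC, HISAT2 2.0.3, featureCounts, edgeR and the build GRCm38.p5. The sources used here give neither the annotation release nor the strand and multi-mapping settings.

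Genes were filtered with filterByExpr by organ and scaled by TMM (factors 0.907 to 1.11), and organs were compared, uterus over brain, with edgeR 4.0.16 (quasi-likelihood test, R 4.3.3, two-sided), adjusting by Benjamini-Hochberg over 16074 genes. Fold changes use a prior count of 0.125, and SE is the unshrunken log2 fold change over the square root of F. Log2 CPM uses a prior count of 2. Limma 3.58.1, DESeq2 1.42.0, other scalings and filters, a replicate block, a stricter threshold, a 2-fold test and leaving out each library were alternatives. A fit without uterus libraries 2 and 4 and brain library 1 was chosen after seeing the data. The procedure was also run on simulated counts, with the same spread for all genes and few genes changed, up and down in equal number. That setting is unlike these data, so it does not test calls of genes as variable as Egr1, Arc and Nr4a3. Coordinates and exon lengths are from GENCODE M21 on GRCm38, matched by gene identifier for 19774 genes. Near-identical copies were searched with BLAST+ 2.17.0.

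The 9 genes, 5 related lists and 7 marker lists (neuron, uterus, Schwann cell, leukocyte, endothelium, blood cell, oligodendrocyte) were chosen with earlier results of these data known. From each related list the text names the 3 called genes that changed most in size, at 1 CPM or more, up to 2 called at 10 CPM or more against the list's median, and for each of the 9 the 2 genes most alike. Marker genes, list members that did not pass (such as Fos and Creb1) and Dusp5 were named after their values were seen. Limits from counts cover counting error only, since PCR copies could not be set apart from separate molecules. The values of 1 marker gene are not reported here. Of 26 upstream symbols, 24 had an entry.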

Additional observations from a re-analysis of the deposited data

Results flagged for a closer look

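A library far from the other 3 of its organ was marked where its gap to the nearest exceeded Dixon's 95% critical share of the range, which chance gives in about 1 of 20 groups of 4. Among the 9 genes this marked Egr1 in uterus library 1 (227 CPM, against 54.2 to 67.3 in the others) and Arc in uterus library 2 (7.06 CPM, against 1.82 to 1.91). Uterus library 1 was also marked for Ier2 (83.1 CPM) and Zfp36 (80.9 CPM), both immediate early genes. Uterus library 4 was marked for Fosb (4.24 CPM) and Rasd1 (52.8 CPM), uterus library 3 for Vgf (0.583 CPM) and uterus library 2 for Slco1c1 (0.141 CPM, the lowest). In brain, library 4 was marked for Scg2 (319 CPM, the lowest) and library 2 for Hmga1 (46.8 CPM). Many groups were checked, from the 9 genes and the other named genes in each organ, so some of these marks are expected by chance alone. Which condition of animal or tissue goes with these libraries was not recorded in the labels and was not tested.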

How the results depend on the processing

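Nr4a1, Nr4a2, Nr4a3, Arc, Egr3 and Egr4 kept their direction and their call under all 19 alternatives, and no alternative called any of the 9 genes higher in uterus. The number called lower ran from 6 to 8, against 7. Npas4 was not called with upper-quartile (-0.57) or library-size scaling (-0.56), with limma-voom (-0.65), at an adjusted p of 0.01 or against a 2-fold change (-0.82), or in the fit without uterus libraries 2 and 4 and brain library 1 (-0.37), and leaving out 1 library gave -1.04 to -0.55. Egr1 was called with limma-voom and with the replicate block (-1.11 each, adjusted p = 0.0276 and 0.00353), and leaving out 1 library gave -1.63 to -0.66. Egr2 turned positive without brain library 2 (0.05, range -0.58 to 0.05) and in the fit without the 3 libraries (0.12), as did Fos in that fit (0.33). Against a 2-fold change, 3781 genes were higher and 4141 lower in uterus, and so were 7 and 1 of the immediate early transcription factors, 3 and 9 of the upstream genes, 3 lower feedback regulators, and 0 higher neuronal effectors or partners. Upper-quartile scaling called 8182 genes higher and 5966 lower, and library-size scaling 8179 and 5949, against 6988 and 7001. It also turned the medians of the feedback regulators (0.15) and partners (0.13) positive. Beyond the scalings, the cause of these changes was not tested. The replicate block called 6898 genes higher and 6948 lower and changed no other call among the 9 than that of Egr1. Libraries with the same number did not deviate together (correlations -0.048, 0.002, 0.083 and 0.074), and 2 of 4 correlated best with their own number, so the numbers were not used as pairs. Whether they mark the same mice is not known. Depth limits Egr4 in uterus, where the library with 0 counts allows up to 0.0706 CPM. With 4 libraries an organ, the p-values weigh the difference between organs against the spread between libraries of these animals.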
